A study of Mus musculus with 16 samples.

Results

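Pancreatic islets and hepatocytes of the mouse were compared in their control state across all genes measured. The comparison used 8 of the 16 Illumina bead arrays of the series, namely the 4 titled as islet controls and the 4 titled as hepatocyte controls. Both tissues were primary cells taken from wild type B6 mice and kept in culture, and both had received the vehicle, 0.1% DMSO, for 48 h. The other 8 arrays held the same tissues after FK866, which blocks NAMPT, an enzyme of NAD synthesis, at 10 nM on islets and 200 nM on hepatocytes, and served only to repeat the tissue contrast. The labels give no age of the mice and do not say whether the 4 arrays of a tissue came from separate animals or cultures. The spread behind each p-value is therefore that between the samples hybridised, and it may be technical. RNA was extracted in bulk, so fewer cells of a type and less RNA per cell cannot be told apart.

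Islets are clusters of endocrine cells in the pancreas. Beta cells make insulin, alpha cells glucagon, delta cells somatostatin and PP cells pancreatic polypeptide, and these hormones are cut from precursors, stored in dense-core granules and released by calcium-triggered exocytosis. Hepatocytes secrete most proteins of the blood plasma without storing them, and they carry out drug metabolism, urea synthesis, bile acid synthesis and much of the body's glucose and lipid metabolism. Both cell types arise from the endoderm and share some transcription factors and the glucose transporter gene Slc2a2.

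Values below are normalized log2 signals of a gene's brightest probe, and differences are islet minus hepatocyte on that scale, so that 1 unit is a 2-fold difference. A probe counted as detected on an array when its deposited detection p-value was under 0.05. Between 11043 and 11846 of 25697 probes were detected per control array. Hepatocyte arrays correlated with each other at a median r of 0.99 to 0.993 over probes. Islet arrays 1, 3 and 4 did so at 0.972 to 0.975. Islet array 2 stood apart at 0.849, and its median signal before normalization was 15.4 against 28.1 to 33.1 on the other islet arrays. It was the array farthest from the islet median for 71.6% of the genes tested, and the median SD between islet arrays was 0.45 with it and 0.20 without it, against 0.15 between hepatocyte arrays. Islet array 3 differed in another way, by carrying transcripts of pancreatic acinar cells, as given with the other cell types below. Values without islet array 2 are given where its removal changed a call of a named gene, or moved a called value or count by over 1.5 times.

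Most genes differed between the tissues. Of 16566 genes with a probe, 9345 were detected on at least 4 of the 8 arrays and tested with limma. Of these, 5630 (60.2%) passed an adjusted p of 0.05, with 2988 (32.0%) higher in islets and 2642 (28.3%) higher in hepatocytes. At least a 2-fold difference was reached by 2300 and 2033 of the called genes, at least 16-fold by 287 and 292, and at least 256-fold by 23 and 24. The numbers in both directions were close at each size. All arrays were normalized to the same distribution of signals, which by itself favours such a balance. Without islet array 2, the counts were 3710 (39.7%) and 3253 (34.8%), and 2985 and 2636 of the genes called with all arrays were called again in the same direction, with 0 in the opposite one. Against the stricter null of a 2-fold difference, limma's treat called 1308 genes (14.0%) higher in islets and 1242 (13.3%) higher in hepatocytes.

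Detection on every array of 1 tissue and on none of the other was uncommon. Any probe of a gene was detected on all 8 arrays for 6550 genes, 39.5% of those with a probe, and on no control array for 5443 (32.9%). Detection on 4 of 4 islet arrays and 0 of 4 hepatocyte arrays was found for 732 genes (4.42%), and the reverse for 538 (3.25%). The remaining 3303 genes (19.9%) were detected on some arrays in other patterns. Of the genes detected on all 8 arrays, 1977 were called higher in islets, 1573 higher in hepatocytes and 3000 were not called, with a median absolute difference of 0.77. Across genes the 2 tissue means correlated at r = 0.619, or 0.636 without islet array 2; this describes genes, which are not independent replicates. For 2228 genes (23.8%) the 95% interval of the difference lay within 1 log2 unit of 0.

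**Figure D1:**
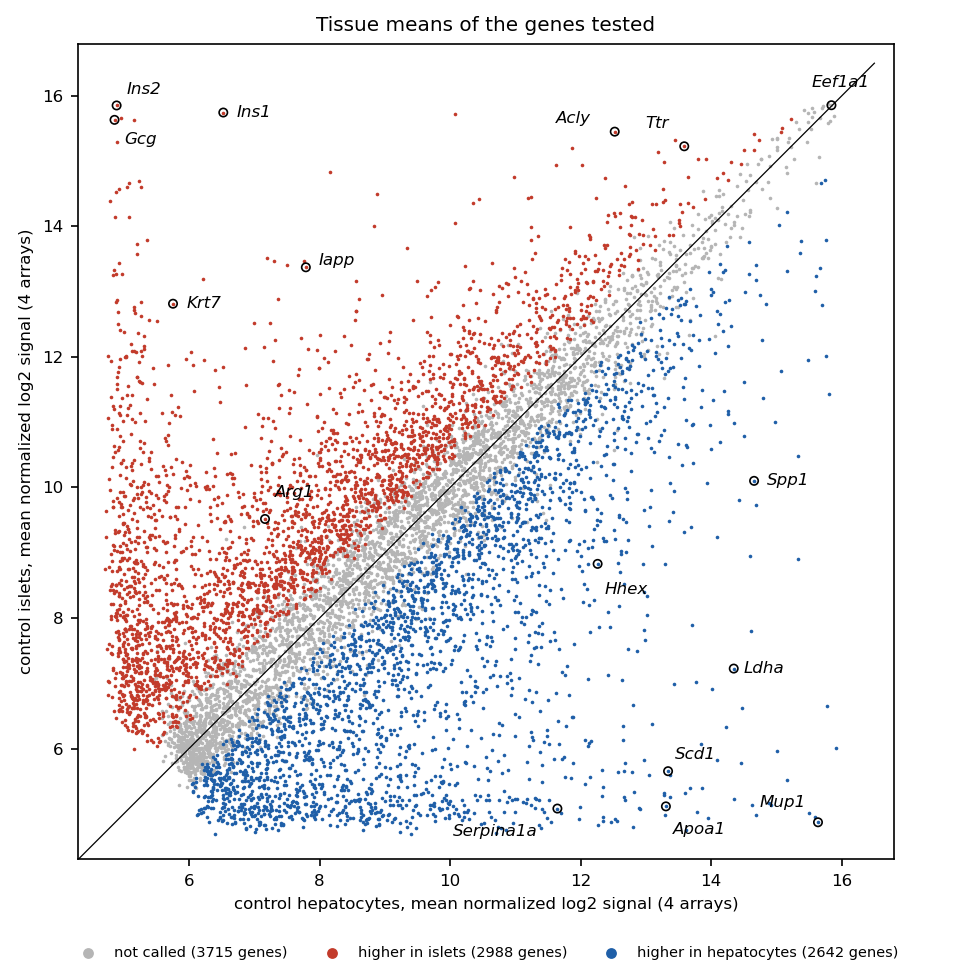
Mean normalized log2 signal over 4 control hepatocyte arrays (horizontal) and 4 control islet arrays (vertical) for the 9345 genes tested, with the line of equal signal. Red points are the 2988 genes called higher in islets, blue points the 2642 called higher in hepatocytes and grey points the 3715 not called. Ins2 and Gcg lie at the upper left and Mup1 at the lower right, while Eef1a1 lies on the line.

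The tissue labels were checked first on marker genes, and each gene stood on the side its label gives. The insulin gene Ins2 had signals of 15.87, 15.93, 15.81 and 15.81 on islet arrays 1 to 4 and of 5.01, 4.82, 4.86 and 4.87 on the hepatocyte arrays, where it was not detected. The other insulin gene, Ins1, had 15.82, 15.79, 15.65 and 15.71 in islets and 6.56, 6.61, 6.28 and 6.65 in hepatocytes, where it was detected on 4 of 4 arrays. The glucagon gene Gcg had 15.77, 15.30, 15.68 and 15.78 in islets and 4.81, 4.82, 4.89 and 4.91 in hepatocytes. The ranges of the tissues were far apart for all 3 genes, and islet array 2 was the lowest islet array for Gcg only. Ins2 was at least 953-fold higher in islets (adjusted p = 1.57e-10), Gcg at least 818-fold (adjusted p = 2.38e-10) and Ins1 596-fold (difference 9.22, SE 0.15, adjusted p = 3.44e-10). Ins2 was above 95% of the array's top signal on 3 arrays and Ins1 on 1, and how far this limited their folds was not tested. Iapp, which encodes amylin, a peptide released with insulin, was detected in both tissues. It had 13.68, 13.34, 13.22 and 13.26 in islets and 7.58, 7.85, 7.76 and 7.97 in hepatocytes, a 48.0-fold difference (5.58, SE 0.17).

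The liver markers were the mirror of this. Mup1, a major urinary protein that liver secretes, had signals of 15.62, 15.51, 15.65 and 15.77 on the hepatocyte arrays and of 4.82, 5.04, 4.88 and 4.73 on the islet arrays. Apoa1, the main protein of high density lipoprotein, had 13.57, 13.01, 13.36 and 13.28 in hepatocytes and 5.04, 5.25, 5.05 and 5.12 in islets. Serpina1a, an alpha-1-antitrypsin gene, had 11.86, 11.45, 11.74 and 11.52 in hepatocytes and 5.28, 4.78, 5.10 and 5.16 in islets. None of the 3 was detected on any islet array. They were at least 875-fold, 174-fold and 55.0-fold higher in hepatocytes, with adjusted p of 1.57e-10, 1.03e-09 and 3.97e-09. The albumin gene Alb had the lowest deposited score on each of the 16 arrays, so no level is given for it.

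**Figure D2:**
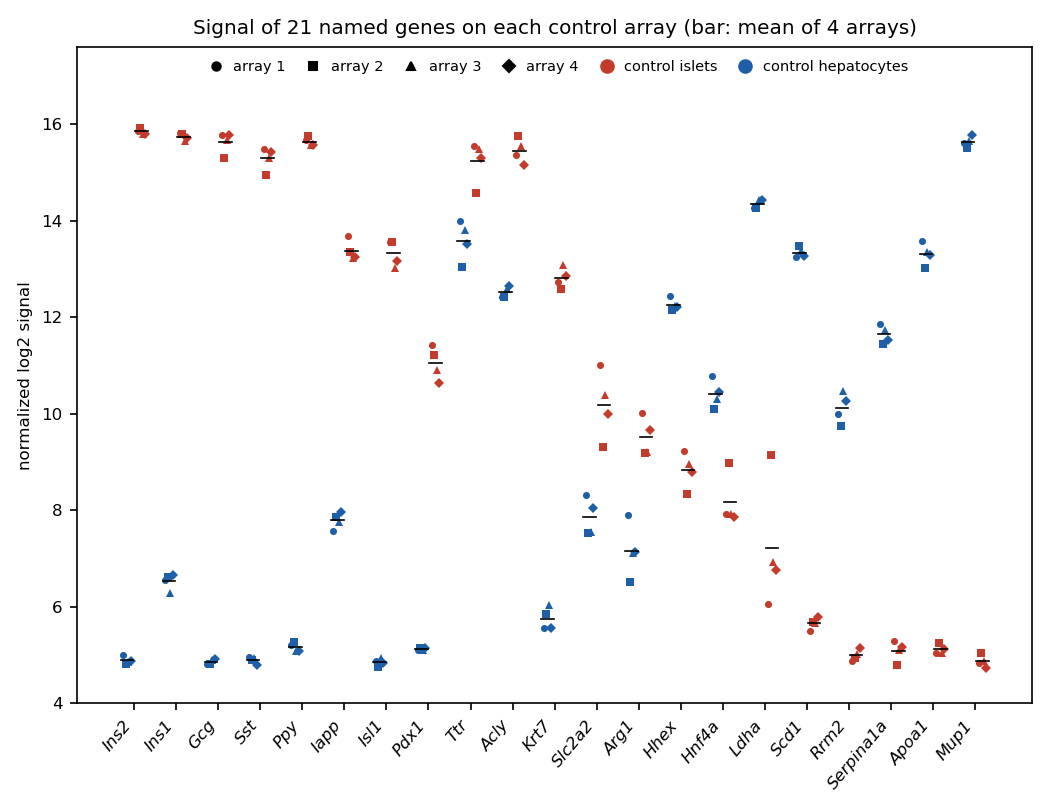
Normalized log2 signal of 21 named genes on each control array, red for islets and blue for hepatocytes, with 1 symbol shape for each array number and the mean of 4 arrays as a bar. Hormone genes at the left and liver plasma protein genes at the right keep their arrays in tight groups, whereas islet array 2 lies apart for Hnf4a at 8.97 and for Ldha at 9.15.

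The largest differences in favour of islets were hormone and granule genes. The 12 largest measured differences, each against a brightest probe not detected on a hepatocyte array and so not ranked here, included Ins2, Gcg, the peptide YY gene Pyy, the pancreatic polypeptide gene Ppy and the somatostatin gene Sst. Pyy, Ppy and Sst were at least 834-fold, 821-fold and 645-fold higher in islets and were not detected on a hepatocyte array. They also included 4 genes of the secretory granule, the prohormone convertase gene Pcsk2 (at least 379-fold), its chaperone gene Scg5 (at least 392-fold), the chromogranin gene Chga (at least 419-fold) and the secretogranin gene Scg2 (at least 345-fold). Scg2 had 15.04, 14.88 and 14.91 on islet arrays 1, 3 and 4 and 12.71 on array 2, and its fitted difference was 9.59 with array 2 and 10.22 without it. The 12 largest also held Epb4.1l3, a membrane skeleton gene, the granule gene Resp18 (at least 426-fold) and Fxyd6, a regulator of the sodium pump (at least 401-fold). Epb4.1l3 had means of 14.60 in islets and 5.05 in hepatocytes, and no fold is given because its brightest probe was not detected on a hepatocyte array while another probe was detected on 1.

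Promoters of 6 hormone and granule genes that were called higher in islets are printed here. The windows run from 250 bases before to 50 bases after the start of the gene, on the gene's strand, from RefSeq on build GRCm38.p6, and 12453 of the 16566 genes (75.2%) had one. They are Ins1 (chr19:52264047-52264346, plus strand), Iapp (chr6:142298175-142298474, plus strand), Gcg (chr2:62483604-62483903, minus strand), Sst (chr16:23890795-23891094, minus strand), Scg2 (chr1:79439977-79440276, minus strand) and Chgb (chr2:132781392-132781691, plus strand). Chgb is the chromogranin B gene, at least 160-fold higher in islets. Capitals mark 4 motifs, searched on both strands: the cAMP response element TGACGTCA, the E-box CAGATGG, which reads CCATCTG on the other strand, TATAAA, and the CCAAT box.
Ins1: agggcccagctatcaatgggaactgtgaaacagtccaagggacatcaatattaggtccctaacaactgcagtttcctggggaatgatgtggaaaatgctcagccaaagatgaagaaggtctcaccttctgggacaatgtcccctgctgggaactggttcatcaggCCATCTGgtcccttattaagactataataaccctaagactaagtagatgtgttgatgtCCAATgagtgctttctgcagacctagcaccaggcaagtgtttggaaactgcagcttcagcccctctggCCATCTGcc
Iapp: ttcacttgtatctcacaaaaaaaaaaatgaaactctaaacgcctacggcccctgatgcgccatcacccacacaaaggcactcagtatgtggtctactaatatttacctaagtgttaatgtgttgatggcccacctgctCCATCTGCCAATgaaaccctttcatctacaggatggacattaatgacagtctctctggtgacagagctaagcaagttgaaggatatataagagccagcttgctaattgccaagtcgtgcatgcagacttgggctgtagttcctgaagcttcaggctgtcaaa
Gcg: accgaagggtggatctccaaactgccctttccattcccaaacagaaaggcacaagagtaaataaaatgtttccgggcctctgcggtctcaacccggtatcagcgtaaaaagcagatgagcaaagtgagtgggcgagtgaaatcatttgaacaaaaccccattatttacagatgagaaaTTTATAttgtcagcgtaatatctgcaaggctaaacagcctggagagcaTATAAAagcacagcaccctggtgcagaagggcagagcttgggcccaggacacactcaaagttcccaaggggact
Sst: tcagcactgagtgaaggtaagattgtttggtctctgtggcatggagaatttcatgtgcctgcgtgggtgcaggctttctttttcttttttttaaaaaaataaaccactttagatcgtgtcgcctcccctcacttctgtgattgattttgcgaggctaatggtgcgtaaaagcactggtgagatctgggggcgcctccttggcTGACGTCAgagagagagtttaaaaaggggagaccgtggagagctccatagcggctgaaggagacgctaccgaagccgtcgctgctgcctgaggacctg
Scg2: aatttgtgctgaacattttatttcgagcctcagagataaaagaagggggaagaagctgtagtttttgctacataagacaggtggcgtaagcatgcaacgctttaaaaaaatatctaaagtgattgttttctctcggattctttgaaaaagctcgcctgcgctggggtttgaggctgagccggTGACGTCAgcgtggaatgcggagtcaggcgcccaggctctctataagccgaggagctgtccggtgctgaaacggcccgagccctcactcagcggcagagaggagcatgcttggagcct
Chgb: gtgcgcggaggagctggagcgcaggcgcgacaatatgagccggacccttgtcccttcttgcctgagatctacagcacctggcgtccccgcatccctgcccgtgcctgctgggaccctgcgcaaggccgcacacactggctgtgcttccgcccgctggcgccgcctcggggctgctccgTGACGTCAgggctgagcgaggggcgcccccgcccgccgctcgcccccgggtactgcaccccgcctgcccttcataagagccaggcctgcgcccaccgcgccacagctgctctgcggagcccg
TGACGTCA lay 48 bases before the start in Sst, 68 before it in Scg2 and 72 before it in Chgb, as counted to its first base. It was in 586 of 32544 promoter windows of all genes, or 1.8%. The E-box lay 85 bases before the start of Ins1 and again 42 bases after it. In Iapp it lay 112 before the start, where it abuts a CCAAT box. The start is that of the first window listed for a gene, and whether islets use that of Ins1 was not tested. The E-box was in 5.29% of all windows, TATAAA in 13.6% and CCAAT in 37.4%. In Gcg, TATAAA lay 24 bases before the start on the gene's strand and 72 before it on the other. The Ins1 window held no CpG dinucleotide and that of Chgb held 31. A match describes letters in the window and says nothing of binding in these cells.

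Gene lists put these genes in context. They are read against all genes with a probe, of which 18.0% were called higher in islets and 15.9% higher in hepatocytes. The median difference over all genes with a probe was 0.04. Among genes tested the shares were 32.0% and 28.3%. These are the closer comparison for lists tested almost in full, such as heat shock and proteasome genes. Of 16 beta cell markers, 15 were called higher in islets and 0 in hepatocytes, with a median difference of 5.98. They included the gap junction gene Gjd2 (at least 159-fold) and the zinc transporter gene Slc30a8 (at least 120-fold). G6pc2, the islet glucose 6-phosphatase subunit, was also called, with means of 12.85 in islets and 4.87 in hepatocytes, and its fitted difference was 7.97 with islet array 2 and 8.57 without it. No fold is given for it, because its brightest probe was not detected in hepatocytes while another was detected on 2 arrays. Mafa, a beta cell transcription factor, did not pass (0.41, adjusted p = 0.155; 0.60 and adjusted p = 0.0104 without islet array 2). Of 10 alpha, delta and PP cell markers, 6 were higher in islets and 1 in hepatocytes. That one was Hhex, a homeobox gene used by delta cells and by liver, at 9.23, 8.34, 8.97 and 8.78 in islets and 12.45, 12.15, 12.23 and 12.21 in hepatocytes, or 10.8-fold higher in the latter (adjusted p = 7.06e-07).

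Of 17 genes for secretory granules and prohormone processing, 14 were higher in islets and 1 in hepatocytes, and the median difference was 7.97. The 1 was Cpn1, a carboxypeptidase N subunit (-0.81, adjusted p = 0.041), which lost its call in 11 of 19 alternatives, among them leaving out any 1 array other than islet array 2. The convertase gene Pcsk1 was not detected on any control array. Of 16 endocrine transcription factors, 10 were higher in islets and 0 in hepatocytes, with a median of 3.86. The LIM homeobox gene Isl1 was at least 165-fold higher, the zinc finger gene Insm1 at least 107-fold, and the homeobox genes Nkx6-1 and Nkx2-2 at least 97.2-fold and 94.0-fold. None of these 4 was detected on a hepatocyte array. The fitted difference of Insm1 was 7.79 with islet array 2 and 8.40 without it. Pdx1, which pancreas formation needs, had 11.43, 11.21, 10.90 and 10.64 in islets and 5.10 to 5.15 in hepatocytes. The eye and islet regulator Pax6 was not detected on any control array.

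Genes for exocytosis and electrical excitability followed the same direction, with 18 of 22 higher in islets, 1 higher in hepatocytes and a median of 3.80. The synaptotagmin gene Syt4 was at least 157-fold higher, Abcc8, the sulfonylurea receptor of the ATP-sensitive potassium channel, at least 88.2-fold, and Cadps, a priming factor of granules, at least 39.3-fold. The calcium channel gene Cacna1c was the gene higher in hepatocytes (-0.64, adjusted p = 0.0243), and its call was lost in 9 of 19 alternatives, among them leaving out hepatocyte array 1, 2 or 4 or islet array 1, 3 or 4. Snap25, a core protein of the fusion machinery, was not detected on any control array.

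In hepatocytes the largest differences were secreted plasma proteins and glutathione transferases. Beside Mup1, the 12 largest measured differences included Mup3 and Mup2, other urinary protein genes, at least 847-fold and 798-fold higher. Hpx, encoding the heme-binding hemopexin, had a mean of 15.91 in hepatocytes, above 95% of the array's top signal on 4 arrays. In islets its mean was 6.01 and it was detected on 2 arrays. With both limits, no exact fold is given for Hpx. The alpha-1-antitrypsin genes Serpina1b, Serpina1d and Serpina1c were at least 627-fold, 531-fold and 358-fold higher. Gsta2 and Gsta1, which conjugate glutathione to toxic compounds, were at least 522-fold and 454-fold higher. The transferrin gene Trf was higher by 554-fold and the haptoglobin gene Hp by 526-fold. The kininogen gene Kng1 had means of 14.63 in hepatocytes and 5.14 in islets, where its brightest probe was not detected and another was detected on 2 arrays. Trf and Hp were detected on 3 of 4 islet arrays, at means of 6.66 and 5.96. Mup, Serpina1 and Gsta genes are near-identical copies of one another, and how far their probes share signal was not tested.

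The 4 Serpina1 copies, each called higher in hepatocytes, had promoter windows that were much alike. By global alignment the 4 windows shared 85.2% to 91.4% of positions in pairs. The windows of Serpina1a (chr12:103863570-103863869, minus strand) and Serpina1d (chr12:103773584-103773883, minus strand) are shown, with the same 4 motifs searched and marked in capitals.
Serpina1a: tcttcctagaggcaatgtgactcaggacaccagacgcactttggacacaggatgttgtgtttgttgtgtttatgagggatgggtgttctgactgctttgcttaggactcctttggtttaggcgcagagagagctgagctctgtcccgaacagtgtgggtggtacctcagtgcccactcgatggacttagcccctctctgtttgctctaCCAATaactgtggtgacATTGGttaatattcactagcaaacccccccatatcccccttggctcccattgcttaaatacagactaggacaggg
Serpina1d: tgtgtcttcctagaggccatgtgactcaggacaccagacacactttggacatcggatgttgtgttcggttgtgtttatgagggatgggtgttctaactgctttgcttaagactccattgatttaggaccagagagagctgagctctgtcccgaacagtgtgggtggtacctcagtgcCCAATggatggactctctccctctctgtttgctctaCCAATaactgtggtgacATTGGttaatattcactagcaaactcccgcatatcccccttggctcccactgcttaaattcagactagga
Both held CCAAT on either strand within 50 bases before the start, at 42 and 25 bases in Serpina1a and at 37 and 20 in Serpina1d, and Serpina1d held it again at 73. Neither held TATAAA, the E-box or the cAMP response element.

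Liver secretory genes were higher in hepatocytes almost throughout their lists. Of 32 plasma protein and apolipoprotein genes, 28 were higher in hepatocytes and 1 in islets, with a median difference of -6.43, and 18 were detected on 4 of 4 hepatocyte and 0 of 4 islet arrays. The exception was the transthyretin gene Ttr, a carrier of thyroid hormone and retinol. It had 15.54, 14.57, 15.49 and 15.30 in islets and 13.98, 13.04, 13.81 and 13.51 in hepatocytes, 3.12-fold higher in islets (1.64, SE 0.28, adjusted p = 0.000767). In both tissues array 2 was the lowest, and the groups did not overlap. Of 27 complement and acute phase genes, 25 were higher in hepatocytes and 0 in islets, with a median of -4.17. Besides Hp, the acute phase genes Orm1 and Orm2 were at least 224-fold and 101-fold higher, and the complement gene C3, detected in islets at a mean of 6.91, was 137-fold higher.

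Genes of drug metabolism were also mostly higher in hepatocytes. Of 29 cytochrome P450 genes, 23 were higher in hepatocytes and 0 in islets, with a median of -2.86. Cyp2a5, an oxidase of nicotine and coumarin, was at least 125-fold higher (124.5 before rounding), Cyp2c70, which makes muricholic acids, at least 47.4-fold and Cyp2c37 at least 16.1-fold. Cyp3a13 was detected in both tissues, at means of 6.04 in islets and 12.11 in hepatocytes (67.5-fold). Of 25 phase II conjugation genes, 17 were higher in hepatocytes and 1 in islets. Beside Gsta2 and Gsta1, the glucuronosyltransferase gene Ugt2b36 was 309-fold and Gsta3 was 233-fold higher. Ugt2b36 was detected on only 2 islet arrays, at an islet mean of 5.82 near background, so its fold is imprecise. The 1 gene higher in islets was Gstz1, an enzyme of tyrosine breakdown (1.36, SE 0.18, adjusted p = 0.000121).

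Many transcription factors of hepatocytes were detected in both tissues. Of 19 with a probe, 10 were higher in hepatocytes and 1 in islets, with a median of -0.71, and 10 were detected on all 8 arrays. Onecut2 was 33.1-fold higher in hepatocytes (-5.05, or -5.64 without islet array 2). The pioneer factor Foxa1 was at least 9.67-fold higher, the xenobiotic receptor gene Nr1i2 at least 3.55-fold and Creb3l3 at least 3.45-fold. Hnf4a, a regulator of both liver and islet genes, had 10.78, 10.09, 10.30 and 10.44 in hepatocytes and 7.93, 8.97, 7.92 and 7.86 in islets (4.71-fold, adjusted p = 0.000102). Foxa2 was the gene higher in islets (0.84, adjusted p = 0.0307), and its call was lost in 10 of 19 alternatives, among them leaving out hepatocyte array 2, 3 or 4 or islet array 1, 3 or 4.

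Metabolic lists leaned to hepatocytes with exceptions. Of 30 genes of the urea cycle and amino acid catabolism, 17 were higher in hepatocytes and 2 in islets. Gldc, of the glycine cleavage system, was 79.2-fold higher in hepatocytes, the cystathionine lyase gene Cth at least 8.58-fold, the ornithine aminotransferase gene Oat 14.0-fold and the betaine methyltransferase gene Bhmt2 at least 7.01-fold. The 2 genes higher in islets were Arg1, the arginase that ends the urea cycle, and Gnmt, a glycine methyltransferase (0.96, SE 0.18). Arg1 had 10.01, 9.19, 9.21 and 9.66 in islets and 7.90, 6.52, 7.11 and 7.12 in hepatocytes, and the groups did not overlap (2.35, SE 0.31, adjusted p = 0.000143). Cps1, which starts the cycle, was higher in hepatocytes by at least 3.02-fold, and Otc, its next enzyme, was not detected on any control array.

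Of 22 genes of bile acid synthesis and transport, 10 were higher in hepatocytes and 0 in islets, and 7 were detected on no control array. The canalicular pump gene Abcc2 was at least 74.1-fold higher, the side-chain oxidase gene Acox2 30.4-fold (30.35) and the sterol hydroxylase gene Cyp27a1 25.4-fold. Acox2 and Cyp27a1 were each detected on only 2 islet arrays. Slc10a1, the bile acid importer of liver, was not detected on any control array. Of 8 gluconeogenesis genes, 1 was called in each direction, or 1 in islets and 2 in hepatocytes without islet array 2. Fbp1, fructose bisphosphatase, was 4.58-fold higher in hepatocytes, and Slc37a4, the glucose 6-phosphate translocase, was at least 1.65-fold higher in islets. The phosphoenolpyruvate carboxykinase gene Pck1 was not detected on any control array, and the liver glucose 6-phosphatase gene G6pc was detected on 3 hepatocyte arrays only, at a mean of 6.01, and was not tested.

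Of 27 genes of fatty acid oxidation and ketogenesis, 9 were higher in hepatocytes and 2 in islets, or 14 and 2 without islet array 2. The thiolase gene Acaa1b was at least 9.26-fold higher in hepatocytes, the dehydrogenase gene Acadm 7.39-fold and the thiolase gene Acaa2 7.15-fold. The related thiolase gene Acaa1a (1.30, SE 0.39) and the carnitine palmitoyltransferase gene Cpt2 (0.71, SE 0.19) were higher in islets. Of 27 genes of cholesterol and fatty acid synthesis, 13 were higher in hepatocytes and 4 in islets, or 15 and 6 without islet array 2.

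The enzymes of fatty acid synthesis differed in opposite directions. Scd1, the delta-9 desaturase, had 13.24, 13.48, 13.38 and 13.26 in hepatocytes and 5.49 to 5.78 in islets, where it was not detected, and was at least 178-fold higher in hepatocytes. Acly, which makes cytosolic acetyl-CoA from citrate, had 15.35, 15.75, 15.55 and 15.15 in islets and 12.42, 12.43, 12.59 and 12.65 in hepatocytes, and was 7.62-fold higher in islets (adjusted p = 6.29e-07). Neither pair of groups overlapped. The lipogenic regulator gene Srebf1 was also higher in islets (1.02, SE 0.20).

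**Figure D3:**
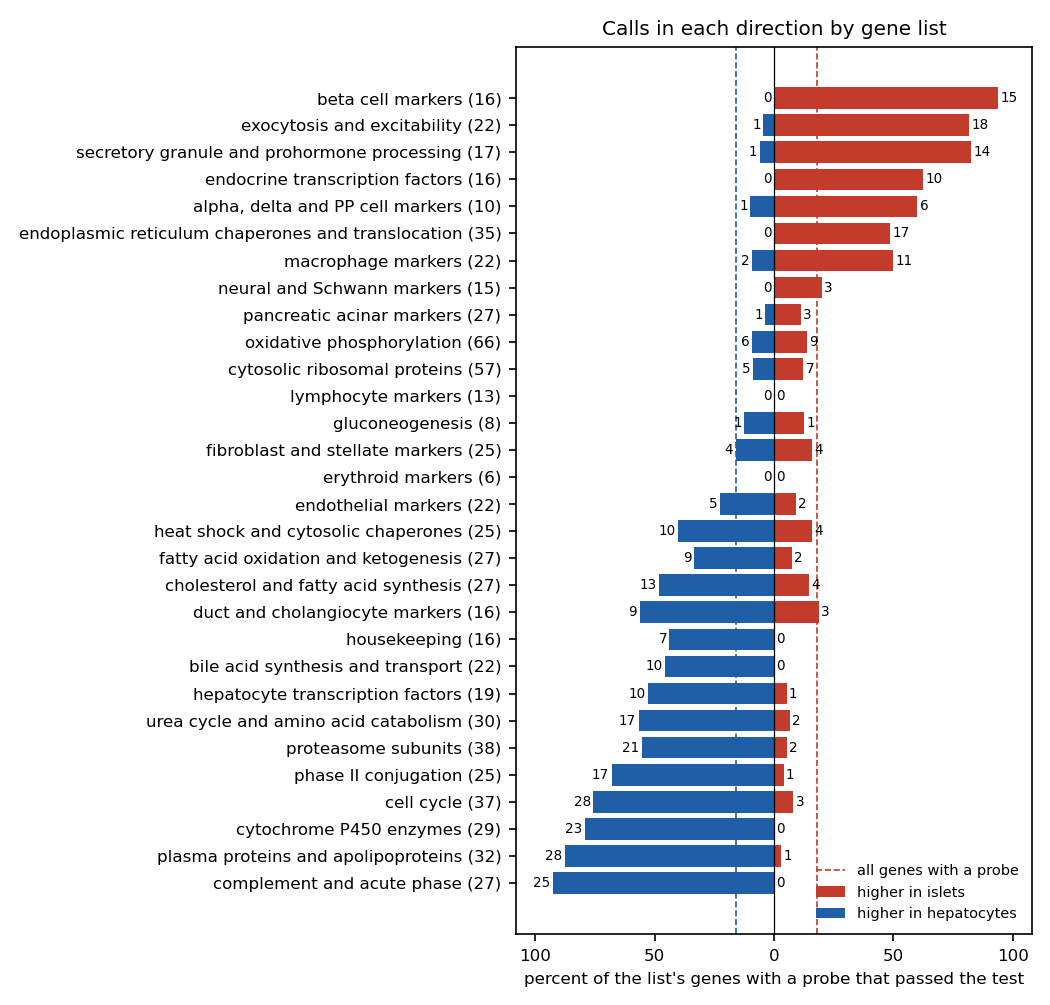
Percent of each list's genes with a probe that limma called higher in islets (red, to the right) or in hepatocytes (blue, to the left), with the number of called genes at the bar's end and the number with a probe in brackets. Dashed lines mark 18.0% and 15.9%, the shares among all genes with a probe, while the shares among genes tested were 32.0% and 28.3%. Endocrine, granule and exocytosis lists extend right, and plasma protein, complement and P450 lists extend left.

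Tissue forms of enzymes and receptors were compared next. Both genes of 20 of 30 listed pairs had a probe, and in 11 both were tested. The facilitative glucose transporters had the form listed for liver called higher in islets and its counterpart called higher in hepatocytes. Slc2a2, whose GLUT2 protein takes up glucose in both cell types, had 11.02, 9.31, 10.39 and 9.98 in islets and 8.32, 7.52, 7.54 and 8.05 in hepatocytes (2.32, SE 0.36, adjusted p = 0.000392). Slc2a1, which encodes GLUT1, was 2.74-fold higher in hepatocytes (2.735, adjusted p = 0.00207).

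Of the named genes for lactate dehydrogenase, pyruvate kinase and glycogen phosphorylase, all but Pkm2 were called higher in hepatocytes. The lactate dehydrogenase gene Ldha had 14.26, 14.27, 14.42 and 14.43 in hepatocytes and 6.06, 9.15, 6.93 and 6.76 in islets, and was 139-fold higher in hepatocytes (adjusted p = 4.1e-06). Islet array 2 was the highest islet array, and the difference was -7.12 with it and -7.78 without it. The liver pyruvate kinase gene Pklr was at least 3.58-fold higher in hepatocytes, whereas the difference of Pkm2 had a 95% interval of -0.40 to 0.65. The liver glycogen phosphorylase gene Pygl was 20.0-fold higher in hepatocytes and the brain form Pygb 1.70-fold (1.695, adjusted p = 0.0347, a call lost in 8 of 19 alternatives, among them leaving out hepatocyte array 1, 3 or 4 or islet array 1 or 4).

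Some forms that are not listed as liver forms were higher in hepatocytes. Mat2a, the methionine adenosyltransferase of most tissues, was 7.13-fold higher in hepatocytes, and the liver gene Mat1a had a difference of 0.48 with an interval of -0.14 to 1.11 (0.76 and adjusted p = 0.00824 without hepatocyte array 1). The alanine aminotransferase gene Gpt2 was 8.09-fold higher in hepatocytes, and Gpt1 was not called (-0.73, interval -1.63 to 0.17; -1.18 and adjusted p = 2.93e-05 without islet array 2). By contrast, the retinaldehyde dehydrogenase gene Aldh1a1, a form listed for liver, was at least 215-fold higher in hepatocytes (214.6). The receptor gene Igf1r, a form not listed for liver, was at least 5.07-fold higher in islets.

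**Figure D4:**
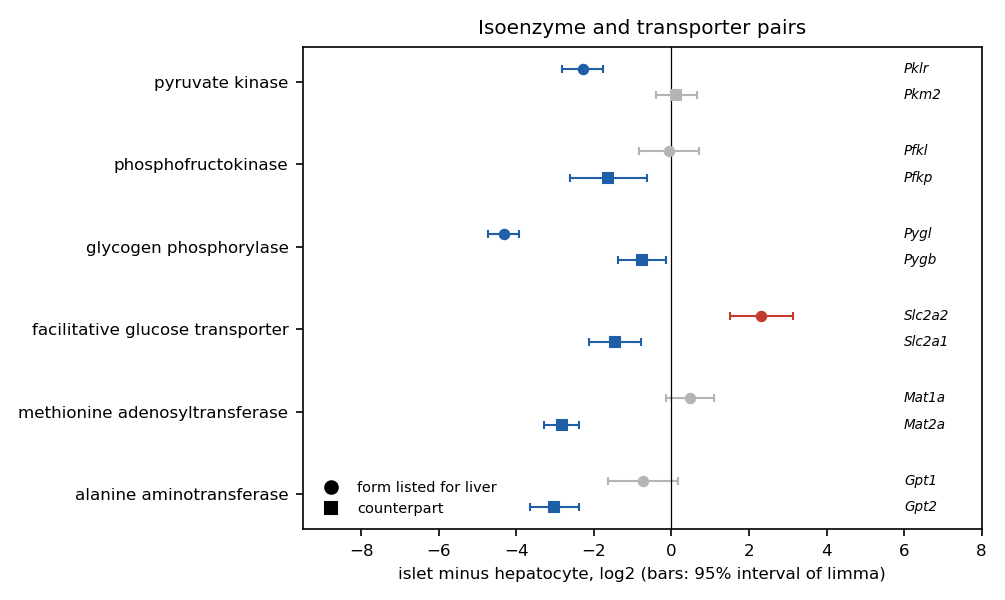
Islet minus hepatocyte difference on the log2 scale with limma's 95% interval for 6 of the 11 pairs in which both genes were tested, those described in the text, circles for the form listed for liver and squares for its counterpart. Red marks genes called higher in islets, blue genes called higher in hepatocytes and grey genes not called. Slc2a2 and Slc2a1 fall on opposite sides of 0, and Pygl and Pygb both lie on the hepatocyte side.

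Lists of genes used by every cell had medians within 1 log2 unit of 0, and several of their counts rested on islet array 2. Of 35 genes for endoplasmic reticulum chaperones and translocation, 17 were higher in islets and 0 in hepatocytes, or 23 and 0 without islet array 2, with a median of 0.66. The oxidase gene Ero1lb, which drives disulfide formation, was 19.8-fold higher in islets. The cochaperone gene Dnajb9 was 6.99-fold, the signal peptidase gene Sec11c 5.92-fold and the degradation factor gene Herpud1 5.16-fold higher. Of 66 oxidative phosphorylation genes, 9 were higher in islets and 6 in hepatocytes, or 23 and 11 without islet array 2, with a median of -0.07. Without hepatocyte array 2, 3 were higher in hepatocytes, and median centring left 4 higher in islets. The complex I genes Ndufb2 (1.24, SE 0.24), Ndufb11 (0.94, SE 0.27) and Ndufs7 (0.74, SE 0.14) were higher in islets. Atp5o, of ATP synthase, was 4.00-fold and Ndufa4 3.03-fold higher in hepatocytes.

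Of 57 cytosolic ribosomal protein genes, 7 were higher in islets and 5 in hepatocytes, shares below those of all genes, with a median of 0.04. The split depended on scaling, at 2 and 9 with centring on the 75th percentile, 1 and 7 with median centring and 3 and 8 on the deposited scores. It was 16 and 7 without islet array 2, and leaving out hepatocyte array 1, 2, 3 or 4 or islet array 1 or 4 left 2 to 4 genes higher in islets and 2 to 5 higher in hepatocytes. Rpl22 was 9.05-fold higher in islets, at 12.60, 11.62, 12.04 and 12.73 against 8.85 to 9.30. Rpl13a was 3.15-fold higher in hepatocytes. Of 38 proteasome genes, 21 were higher in hepatocytes and 2 in islets, or 24 and 4 without islet array 2, with a median of -0.61. The 2 fell to 1 without hepatocyte array 1, 3 or 4 and to 0 with median centring. The proteasome genes Psmd5, Psmd1, Psmd8 and Psmd11 were 6.75-fold, 4.11-fold, 4.08-fold and 3.96-fold (3.955) higher in hepatocytes. The immunoproteasome gene Psmb9 was higher in islets (0.64, SE 0.18).

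Of 25 heat shock and cytosolic chaperone genes, 10 were higher in hepatocytes and 4 in islets, the latter 2 with median centring or on the deposited scores. The small heat shock protein gene Hspb1 was 106-fold higher in hepatocytes, at 12.96, 13.23, 13.28 and 12.92 against 6.36, 6.59, 6.17 and 6.38. Hspb8 and the crystallin gene Cryab were 16.6-fold (16.55) and 8.70-fold higher in hepatocytes. The HSP70 family gene Hspa2 was 13.9-fold higher in islets and the inducible Hspa1a at least 3.60-fold. Genes often used as references were not level, since 7 of 16 were higher in hepatocytes and 0 in islets. B2m, a subunit of class I antigen presentation, was 5.19-fold, the tubulin gene Tuba1b 3.59-fold and the glycolytic gene Gapdh 2.43-fold higher in hepatocytes. The translation factor gene Eef1a1 had a difference of 0.01 (interval within 0.5 of 0), but it was above 95% of the array's top signal on 7 of 8 arrays, and so did the ribosomal genes Rplp1, Rpl38 and Rpl41 on 5, 4 and 3.

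Cell cycle genes were higher in hepatocytes. Of 37, 28 were higher in hepatocytes and 3 in islets (5 without islet array 2), with a median of -2.55, and 10 were detected on 4 of 4 hepatocyte and 0 of 4 islet arrays. Rrm2, a subunit of the ribonucleotide reductase that makes DNA precursors, had 10.00, 9.73, 10.47 and 10.25 in hepatocytes and 4.88 to 5.14 in islets. The mitotic kinase gene Cdc2a was 21.1-fold higher in hepatocytes, the anaphase activator gene Cdc20 at least 16.4-fold and the centromere histone gene Cenpa 14.8-fold. Ccnd2, a D-type cyclin, was 5.21-fold higher in islets, and the cell cycle inhibitor gene Cdkn1c 4.34-fold. Cdkn1c had 9.83 on islet array 2 and 7.37 to 7.65 on the other islet arrays.

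Markers of other cells in either preparation were examined by list. Pancreatic acinar markers, which make digestive enzymes, set islet array 3 apart: 22 of 27 were detected there, against 8, 7 and 5 on islet arrays 1, 2 and 4 and 3 to 4 on hepatocyte arrays. The pancreatic lithostathine gene Reg1 had 10.62 on islet array 3 and 5.10 to 5.78 on the others, and the lipase-related gene Pnliprp1 had 9.95 there and 4.99 to 5.20 elsewhere. The log2 of the list's summed signal was 13.22 on array 3, 11.51 to 11.70 on the other islet arrays and 10.55 to 10.96 on hepatocyte arrays. In the test, 3 of 27 were called higher in islets. They included Bhlhb8 (MIST1), a secretory cell factor, at least 24.1-fold, and the ribonuclease gene Rnase1, at least 5.37-fold. Bhlhb8 had 10.46, 10.68, 10.71 and 10.33, and thus did not follow array 3. The trypsin inhibitor gene Spink3 was 5.60-fold (5.595) higher in hepatocytes. Among islet arrays it was detected on array 3 alone, and its difference was -2.48 with that array and -3.06 without it.

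**Figure D5:**
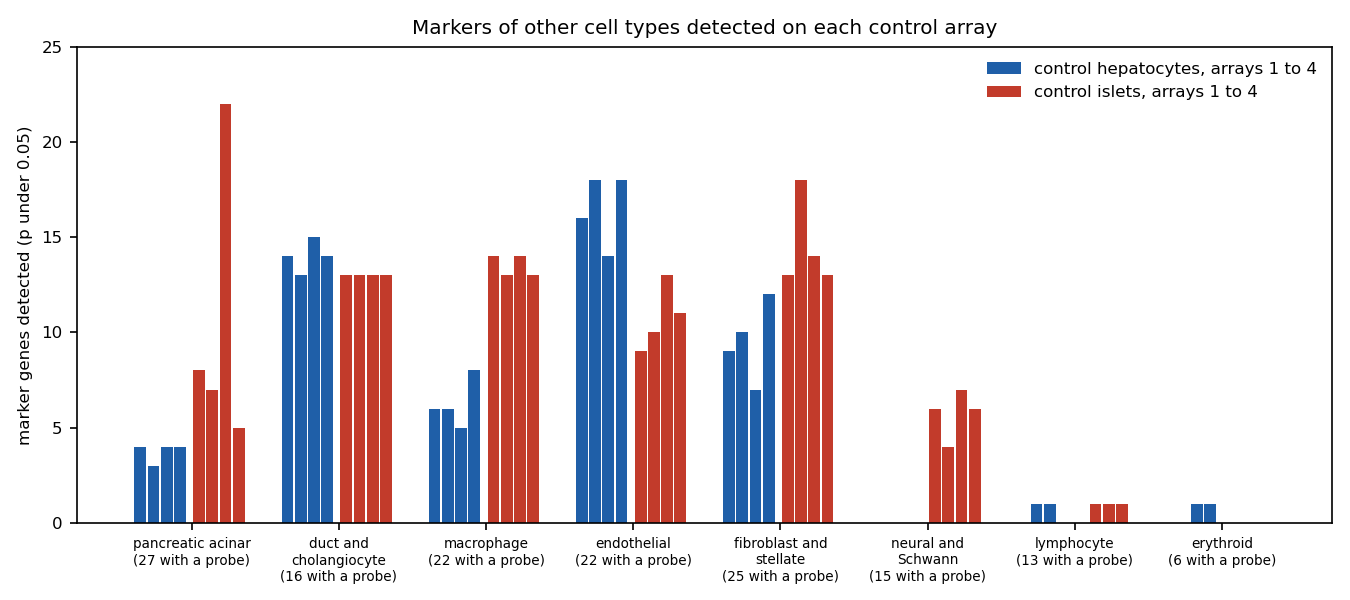
Number of marker genes detected on each control array for 8 lists of other cell types, blue for hepatocyte arrays 1 to 4 and red for islet arrays 1 to 4, with the number of genes that have a probe under each list. Islet array 3 holds 22 acinar markers against 5 to 8 on the other islet arrays, and lymphocyte and erythroid markers are at 0 or 1 on each array.

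Duct and cholangiocyte markers were called in both directions. Of 16, 9 were higher in hepatocytes and 3 in islets. The islet count was near the 18.0% called among all genes with a probe, and below the 32.0% among genes tested. The keratin gene Krt7 had 12.73, 12.58, 13.09 and 12.85 in islets and 5.55 to 6.04 in hepatocytes, 134-fold higher in islets (133.5), while the keratin gene Krt19 was not detected in islets and was at least 9.50-fold higher in hepatocytes. Spp1, osteopontin, was 23.5-fold higher in hepatocytes, and the tetraspanin gene Tspan8 10.7-fold higher in islets. The list's summed log2 signal was 14.79 to 15.27 on islet arrays and 17.41 to 17.63 on hepatocyte arrays. It includes genes that hepatocytes or endocrine cells also use, such as Onecut2.

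Of 22 macrophage markers, 11 were higher in islets and 2 in hepatocytes, with 7 detected on no control array, among them the Kupffer cell genes Clec4f, Vsig4 and Timd4. The complement genes C1qb and C1qc were 21.7-fold and 11.3-fold higher in islets, and the lysozyme genes Lyz and Lyz2, which are near-identical copies, 16.3-fold and 13.6-fold. C1qb had 10.65, 10.47, 9.83 and 9.86 in islets and 5.04, 5.91, 5.17 and 6.93 in hepatocytes. The lipopolysaccharide coreceptor gene Cd14 was 34.0-fold and the lysosomal gene Cd68 3.19-fold higher in hepatocytes. The list's summed log2 signal was 13.33 to 14.00 in islets and 12.07 to 12.52 in hepatocytes. Of 13 lymphocyte markers and 6 erythroid markers, 0 were called in either direction, and 12 and 5 were detected on no control array. Without the detection filter, which leaves these genes mostly untested, 1 erythroid marker was called higher in hepatocytes.

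Of 22 endothelial markers, 5 were higher in hepatocytes and 2 in islets. The tight junction gene Cldn5 was at least 8.26-fold and the liver sinusoid gene Oit3 at least 2.01-fold higher in hepatocytes, and the receptor gene Flt1 6.53-fold (6.525) and Plvap 2.05-fold higher in islets. Leaving out hepatocyte array 1, 2 or 4, or islet array 1 or 4, left 2 or 3 higher in hepatocytes, and leaving out hepatocyte array 3 or islet array 2 gave 7. Of 25 fibroblast and stellate markers, 4 were called in each direction, near the 18.0% and 15.9% among all genes with a probe. The collagen gene Col6a1 was at least 5.74-fold and the proteoglycan gene Bgn 3.23-fold higher in islets, and Vim, the filament of mesenchymal and cultured cells, was 41.4-fold and the protease inhibitor gene Timp1 6.51-fold higher in hepatocytes. Islet array 2 carried more of this list, with a median 1.02 above the other islet arrays and 18 of 25 genes detected against 13 to 14. Col6a1 had 9.92 on array 2 and 7.71 to 8.36 on the others.

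Of 15 neural and Schwann cell markers, 3 were higher in islets and 0 in hepatocytes, where 0 were detected on any array. The islet count was near the 18.0% called among all genes with a probe. The median difference was 0.29, 12 were not called and 7 were detected on no control array. Which cells carried the called transcripts was not tested. Th, the tyrosine hydroxylase of dopamine synthesis, was at least 4.73-fold and the neuronal RNA-binding gene Elavl4 at least 3.93-fold higher. The part of these other cell types in the tissue differences above was not tested.

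Within a tissue, the genes that varied most differed in their pattern. In islets, those with the largest SD were high on array 2. The transcript BC030476 had 15.24 there and 8.15 to 9.83 on the others, the perforin gene Prf1 13.67 against 7.02 to 8.52, the interferon receptor gene Ifngr2 13.44 against 6.95 to 8.0, and the rhomboid protease gene Rhbdl2 14.48 against 8.57 to 9.94. Of these, only Rhbdl2 was called with all arrays (3.06, adjusted p = 0.0394), and its call was lost in 8 of 19 alternatives, among them leaving out any 1 hepatocyte array or islet array 4. Without array 2, Rhbdl2 was at 1.73, and BC030476 (0.96, adjusted p = 0.0247) and Prf1 (1.16, adjusted p = 0.00576) were called higher in islets. Without array 2, Ifngr2 was higher in hepatocytes (-0.91, adjusted p = 0.00343), and its probes differed in direction. In hepatocytes, the lymphatic and sinusoid marker Lyve1 had 7.20, 8.88, 6.82 and 8.31, and the lysyl oxidase gene Lox had 7.44, 6.39, 8.22 and 8.10. Hepatocyte array 2 was the highest for Lyve1 and the lowest for Lox, and array 3 was the reverse.

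The contrast was repeated on the 8 treated arrays, which share no array with the controls but differ from them by FK866, at unequal doses in the 2 tissues. Of 9347 genes tested there, 3449 (36.9%) were higher in islets and 2956 (31.6%) in hepatocytes. Leaving out treated islet array 2 gave 3963 and 3388, and leaving out any other treated array 3181 to 3324 and 2737 to 2850. Islet array 2 of the controls had the same effect. Whether treated and control arrays of the same number share a preparation is not given in the labels and was not tested. The repeat may therefore not be independent of the controls. Both comparisons called 2845 genes higher in islets, 95.2% of the control calls and 82.5% of the treated calls. They called 2488 higher in hepatocytes, 94.2% and 84.2%. No gene was called in opposite directions. The differences of Ins2, Gcg and Mup1 on treated arrays were 10.70, 10.48 and -10.73. Ttr, the exception among plasma proteins, had 0.80, and Arg1 had 2.75. Whether the tissue difference itself changed with treatment was tested as the interaction in limma over 10042 genes, without a term for replicate number. It called 0 genes, with 179 at an unadjusted p under 0.05, and no other tool was run on it. That is a smaller share than the 0.05 expected with no change in any gene. The test was thus overcautious, and 0 calls do not show that the difference stayed the same.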

How the data were processed

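Biotinylated cRNA from 16 samples was hybridised to Illumina bead arrays, per the labels' protocols. For the scanner, array annotation and genome build, nothing was given in the sources used. The authors deposited, for 25697 probes, a linear intensity that its negative values show to be background-subtracted, and a detection p-value per probe and array. A second deposited table held a score for 18111 gene symbols. By its values, that score was the mean over a gene's probes of log10 intensity, with values under 1 set to 1, scaled to mean 0 and SD 1 within each array. The deposited log10-based score carries no probe names, so probes were named by finding those whose intensities gave a symbol's score on each array within 1e-06. This named 23910 probes for 16566 symbols. A further 1464 symbols had no signal on any array and 76 were ambiguous, and neither kind was used. Over a stretch of 5015 genes the islet scores were displaced by 1 gene and were moved back, after which scores of the tissues correlated there at 0.847, against 0.289 as deposited and 0.820 outside it. Of the symbols, 14306 were current in RefSeq, 2950 were synonyms and 855 were not found.

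The intensities of the 8 control arrays were background-corrected with an offset of 16, quantile normalized and log2 transformed (neqc of limma 3.58.1, R 4.3.3). The brightest probe stood for its gene, and for 434 genes tested, probes differed in direction. A gene detected on at least 4 of 8 arrays was tested with lmFit and eBayes and called at a Benjamini-Hochberg adjusted p of 0.05, two-sided. No count data or depth exist for these arrays, and their number limits the precision. No arrays held identical values. Where a gene was detected on no array of the lower tissue, a fold is given as "at least" and is measured against the higher of the lowest detected signal and its own signal on each array. Genes with an exact fold that were detected on only some arrays of the lower tissue were Cdc2a, Spink3, Krt7, C1qb and C1qc on 1, Ugt2b36, Acox2, Cyp27a1, Cryab and Cdkn1c on 2, and Trf, Hp, Fbp1, Psmd5, Tspan8 and Lyz2 on 3. Fold changes otherwise are 2 to the power of the log2 difference. A list's median covers all members with a probe, from a fit with no detection filter. In data simulated at this design with 200 changed genes among 9345, limma called 34% of genes changed 2-fold and 79% of those changed 4-fold. In the real data 5630 genes were called, so the adjustment was stricter in the simulation. The shares found there are not those of this comparison. Figures and tables were made in Python 3.11.15.

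Named genes are the 12 largest called differences in each direction with groups that did not overlap, leaving out uncharacterized models, the marker genes, up to 4 called members of each list with the largest difference, up to 2 called against it and defining markers near background, the 8 brightest genes with an interval within 0.5 of 0, the 8 with the largest SD per tissue, and the isoenzyme pairs. Members, markers and lists were chosen with earlier results of these data known. Chgb, Slc30a8, Mafa, Pdx1, Reg1 and Pnliprp1 fall outside that rule and were named after their values were seen. The 19 alternatives were other normalizations, background, detection filter, probe summary, variance models, a replicate block, a 2-fold null and leaving out each array. The spread without each array was added after the data were seen. Some genes that the rule names are not reported here.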

Additional observations from a re-analysis of the deposited data

Results flagged for a closer look

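Among 269 sets of a named gene on the 4 arrays of 1 tissue, 25 (9.29%) had 1 array whose distance to the nearest of the others took up most of the range (Dixon's test at 95%). Chance gives about 1 in 20 for sets not chosen by their values. These sets include genes named for a large spread and Reg1 and Pnliprp1, named after their values were seen, so the share is not set against that rate. Islet array 2 held 17 of the 25.

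On islet array 2, several genes used by most cells were low. Ndufa4 had 10.81 against 13.02 to 13.19 on the other islet arrays, Psmd11 6.97 against 9.04 to 9.15, Dnajb9 11.63 against 13.57 to 13.80, B2m 11.68 against 13.61 to 13.86, and Tuba1b 11.93 against 13.71 to 13.86. The islet genes Scg2, at 12.71 against 14.88 to 15.04, and Insm1, at 11.05 against 13.06 to 13.34, were low there too, and so was Oat, at 6.29 against 7.72 to 7.91. Pyy was slightly higher, at 15.77 against 15.62 on each of the others.

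Other genes were high on islet array 2. Cpn1 had 10.04 against 8.76 to 8.87, Cacna1c 6.69 against 5.86 to 5.94, Hnf4a 8.97 against 7.86 to 7.93, and Acaa1a 15.03 against 13.14 to 13.31. Cdkn1c had 9.83 and Ifngr2 13.44, with the other islet arrays as given above. Gpt1 had 9.41 against 7.53 to 7.69, and the phosphofructokinase gene Pfkl 12.77 against 11.23 to 11.34.

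On islet array 3, the acinar genes Reg1 and Pnliprp1 had 10.62 and 9.95, as given above. On hepatocyte array 1, Acaa1b had 9.88 against 8.71 to 8.89, Mat1a 11.43 against 10.21 to 10.41, Dnajb9 10.51 against 10.28 to 10.31, and Aldh1a1 13.76 against 13.54 to 13.57. On hepatocyte array 2, Cth had 9.72 against 8.70 to 8.72, and Pfkp, the platelet form of phosphofructokinase, 8.95 against 9.40 to 9.47.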

How the results depend on the processing

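The counts of genes higher in islets and in hepatocytes stayed within 1.5 times of 2988 and 2642 under each alternative except the 2-fold null, which called 1308 and 1242. Leaving out 1 array gave 2651 to 3710 and 2341 to 3253, the highest of each without islet array 2. The deposited scores gave 2502 and 2495, and median centring 2768 and 2419. The labels do not say whether replicate numbers pair the samples. Deviations of same-numbered arrays correlated at -0.108 to 0.0856 and those of other arrays at -0.0871 to 0.139. Weak correlations between 2 different tissues cannot decide this. The fit with the number as a replicate block called 2860 and 2478, and on treated arrays 6166 genes against 6405 without it. The median difference of all genes moved by less than 0.1 under each setting. Each setting scaled the arrays to a common level, which holds that median near 0. At a detection p under 0.01, 827 genes were detected in islets alone and 570 in hepatocytes alone. The median SD between islet arrays was 0.20 to 0.50 without 1 array, lowest without array 2, and between hepatocyte arrays 0.12 to 0.15.

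Of 166 named genes tested, 151 were called, 33 lost their call in at least 1 alternative and 14 did so outside the 2-fold null. Ifngr2, not called at 0.59, was lower in islets by the deposited scores (-0.52), with the mean of probes (-1.31) and without islet array 2 (-0.91), and without 1 array it ranged from -0.91 to 1.27. The choline kinase gene Chka, not called at 1.92, was -0.32 on the deposited scores. Without islet array 2, Chka was called higher in islets (0.65, adjusted p = 0.0293). The cause was not tested. Array signals limit low genes: a gene under background in a tissue has only a bound there, and a gene not detected may still be expressed.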

Other observations

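A few further isoenzymes differed between the tissues. Gpd2, the mitochondrial glycerol phosphate dehydrogenase, was 2.57-fold higher in islets (adjusted p = 0.00674 by limma). Pfkp was 3.09-fold higher in hepatocytes, whereas the liver form Pfkl was not called, with a difference of -0.05 and a 95% interval of -0.82 to 0.71. Without islet array 2, Pfkl was called higher in hepatocytes (-0.43, adjusted p = 0.0146).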
